A study of Mus musculus with 6 samples.

Results

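The miR-378 family was followed through 6 small RNA libraries of mouse fetal liver. Its members were taken by name from the deposited table of mature miRNA counts, where 5 of the 1626 rows carried a listed name: mmu-miR-378a-3p, mmu-miR-378a-5p, mmu-miR-378b, mmu-miR-378c and mmu-miR-378d. All 5 passed the low-count filter, as did 876 rows in all. All embryos were C57BL/6J. The wild-type (WT) group held 3 libraries, numbered 1 to 3, and the knockout (KO) group held 3 libraries, numbered 4 to 6, from embryos of genotype miR-144/451-/-, which lack the erythroid miR-144/451 locus. The labels give no embryonic day and do not tie the replicates to separate embryos or litters, and any p-value here speaks only for the spread among these libraries, which may be technical. Sample labels and protocol describe total RNA of fetal liver cells made into small RNA libraries, while the series' design text names HITS-CLIP, which reads RNA bound to a protein. The values are treated here as total miRNA levels, and under HITS-CLIP they would stand for bound miRNA instead. The question was what the levels of this family are in fetal liver and whether they differ when miR-144/451 is absent.

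A miRNA is cut from a hairpin precursor by Drosha and then Dicer, and one strand of the resulting duplex, the guide, is kept in Argonaute, where its seed (bases 2 to 8) pairs with target mRNAs. The other strand, the passenger, is mostly degraded. miR-378a comes from an intron of Ppargc1b, which encodes PGC-1β, a coactivator of mitochondrial and lipid genes, and it is known as a regulator of energy balance in liver, muscle and fat. Its 3p strand is the guide and its 5p strand the passenger. miR-378b, miR-378c and miR-378d are paralogues from other hairpins that resemble the miR-378a guide in sequence.

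Mature sequences of miR-378b, miR-378c and miR-378d are shown because their likeness bears on which counts can be read as separate signals. They are from RefSeq (GRCm38.p6), which matched 3 of the 5 members by name, and capitals mark the seed.
miR-378b: cUGGACUUggagucagaaga
miR-378c: aCUGGACUuggagucagaagc
miR-378d: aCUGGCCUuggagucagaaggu
The annotated miR-378b starts 1 base later than miR-378c, so its seed is shifted along the same letters. Aligned on their 19-base shared run, miR-378b and miR-378c differed by A20C, counted from the 5′ end of miR-378b. miR-378d differed from miR-378c by A6C, inside the seed, and by C21G, counted from the 5′ end of miR-378c, and shared at most 14 bases in a row with it. The 3 seeds were thus all different, and each was found in 1 of the 1679 mature mouse names of the RefSeq table. That table held no entry for miR-378a, so the seed of the miR-378a guide was not compared and a match to it would be missed.

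By position, the hairpins place these matures on different arms, with capitals marking the mature strand.
Mir378b: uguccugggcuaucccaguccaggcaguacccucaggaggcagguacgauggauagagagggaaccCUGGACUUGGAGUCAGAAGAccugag
Mir378c: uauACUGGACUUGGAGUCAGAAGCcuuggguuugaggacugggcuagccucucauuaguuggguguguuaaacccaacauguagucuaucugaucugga
Mir378d: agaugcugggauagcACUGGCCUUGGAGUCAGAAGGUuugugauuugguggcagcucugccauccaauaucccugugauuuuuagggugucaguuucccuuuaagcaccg
The mature strand spans positions 67 to 86 of 92 in Mir378b, on the 3′ side, but positions 4 to 24 of 99 in Mir378c and 16 to 37 of 110 in Mir378d, on the 5′ side. Predicted folding energies (RNAfold) were -31.1, -27.0 and -35.0 kcal/mol for Mir378b, Mir378c and Mir378d. Per base these were weaker than the median of -0.41 kcal/mol over the 1005 RefSeq hairpins folded, at -0.34, -0.27 and -0.32. Of all hairpins, 75.8%, 93.1% and 82.8% were more stable per base than Mir378b, Mir378c and Mir378d.

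The 4 genes lie on separate chromosomes in GRCm38 (GENCODE M21). Mir378a is at 61397835 to 61397900 on the minus strand of chromosome 18, in an intron of Ppargc1b and on its strand. An unnamed miRNA model, Gm25301, is annotated on the opposite strand there, and the strand used in counting was not given in the sources used here. Mir378b (chromosome 11, 88352773 to 88352864, plus strand) lies within an intron of Msi2 and Mir378c (chromosome 14, 46954830 to 46954928, minus strand) within an intron of Samd4, each opposite in strand to its surrounding gene. Mir378d (chromosome 10, 126710282 to 126710391, minus strand) overlapped no annotated gene, and the nearest coding gene, Atp23, was 158.0 kb away. Mir378b shares chromosome 11 with the deleted locus, at 10.3 Mb from Mir144.

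Library totals ran from 16243894 to 27089133 miRNA counts. The deleted locus took 17.6% to 24.1% of counts in the WT libraries and 0.0214% to 0.0231% in the KO libraries, so each library matched its label. Fetal liver markers were present throughout: the hepatocyte miRNA miR-122-5p stood at 29323.4 to 117798 counts per 1000000 after TMM scaling (CPM) and the erythroid miR-486a-5p at 43832.2 to 82222.9 CPM. In such bulk RNA, fewer cells of a type and less RNA per cell cannot be told apart.

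The rows of miR-378a-3p, miR-378b and miR-378c held nearly the same count in every library. Their counts in WT libraries 1, 2 and 3 were 95740, 126115 and 82433 for miR-378a-3p, 95651, 126056 and 82359 for miR-378b, and 95763, 126191 and 82457 for miR-378c. KO libraries 4, 5 and 6 held 87804, 75763 and 112685, then 87771, 75728 and 112622, then 87856, 75806 and 112738 counts in the same order of members. In every library miR-378c was highest and miR-378b lowest, and the largest gap between any 2 of the 3 rows was 0.119%. Relative to miR-378c, miR-378a-3p was short by 23 to 76 counts and miR-378b by 78 to 135 counts. These few counts are all that set the rows apart, so the data give no separate level for miR-378b or miR-378c. How reads that match several rows were counted is not given in the sources used here: each may have been counted in full in every row, or divided among them. No row outside the family came within 5% of them in all 6 libraries.

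miR-378a-5p and miR-378d were the rows whose counts no other row matched within 5%. The 5p row was used as the locus-specific reading of miR-378a, since it is the strand opposite the guide that the paralogues resemble. Its sequence was not compared with the paralogue hairpins. It held 920, 1067 and 662 counts in WT libraries 1 to 3 and 719, 679 and 882 in KO libraries 4 to 6. miR-378d held 53, 75 and 45 counts in WT and 49, 45 and 81 in KO. By mean CPM the guide rows ranked 43 to 45 among all 1626 rows, miR-378a-5p ranked 322 and miR-378d 586.

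The family's share of the library depends on that rule. If each read was counted in every row, the sum of the rows is too high, and if reads were divided, a single row is too low. Under the first rule the library total, which holds all rows, would be too high as well, and a single-row share of it too low. Summed over 5 rows it took 1.29% ± 0.179 of WT counts and 1.47% ± 0.134 of KO counts (SD, n = 3 each). With the largest guide row standing for all 3, it took 0.466%, 0.470% and 0.364% in WT libraries 1 to 3 and 0.546%, 0.464% and 0.473% in KO libraries 4 to 6. The groups overlapped, with the lowest value in WT library 3 and the highest in KO library 4. The means were 0.433% ± 0.0602 and 0.494% ± 0.0447 (SD, n = 3 each; exact two-sided permutation p = 0.3, where 0.1 is the smallest that 3 against 3 libraries can give). With the deleted locus taken out of the total, the order of the means turned, to 0.547% ± 0.0819 in WT and 0.494% ± 0.0447 in KO (exact two-sided permutation p = 0.4).

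The guide of miR-378 did not pass the test between genotypes. On the TMM scale, the WT libraries 1 to 3 held 5231.7, 5224.2 and 4126.5 CPM of miR-378a-3p, and the KO libraries 4 to 6 held 4427.5, 4184.2 and 4318 CPM. WT libraries 1 and 2 were above all KO libraries and WT library 3 was below them, so the groups overlapped. The means were 4860.8 ± 636 and 4309.9 ± 121.8 CPM (SD, n = 3 each), giving as log2 fold KO over WT of -0.17 (SE 0.14; 95% interval -0.49 to 0.15; edgeR quasi-likelihood Benjamini-Hochberg adjusted p = 0.647). The interval runs from 0.71 to 1.11 times the WT level. miR-378b and miR-378c, with their near-equal counts, gave log2 folds of -0.17 (SE 0.14) and the same adjusted p.

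The passenger strand, used as the reading of the Ppargc1b intron, also did not pass. The WT libraries held 50.3, 44.2 and 33.1 CPM of miR-378a-5p, and the KO libraries 36.3, 37.5 and 33.8 CPM. As with the guide, WT libraries 1 and 2 were above every KO library and WT library 3 was the lowest of the 6. Its means were 42.5 ± 8.69 and 35.9 ± 1.88 CPM (SD, n = 3 each), giving as log2 fold -0.25 (SE 0.21; 95% interval -0.75 to 0.26; edgeR adjusted p = 0.68), or 0.593 to 1.2 times the WT level. Without WT library 3 its log2 fold was -0.47 (edgeR adjusted p = 0.426) and that of miR-378a-3p -0.35 (edgeR adjusted p = 0.41).

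miR-378d has a seed unlike those of miR-378b and miR-378c. It measured 2.9, 3.11 and 2.25 CPM across the WT libraries, against 2.47, 2.49 and 3.1 CPM across the KO libraries. WT library 3 was again the lowest, while KO library 6 was level with WT library 2. The means were 2.75 ± 0.445 and 2.69 ± 0.361 CPM (SD, n = 3 each), giving as log2 fold -0.03 (SE 0.24; 95% interval -0.61 to 0.54; edgeR adjusted p = 0.999). At 45 to 81 counts per library, counting error alone was wide: the 95% Wilson interval in WT library 1 ran from 1.95 to 3.34 per 1000000 counts of the library, without TMM scaling, around a value of 2.56. Such intervals allow for counting error alone, because PCR copies of 1 molecule cannot be recognised in these reads.

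**Figure D1:**
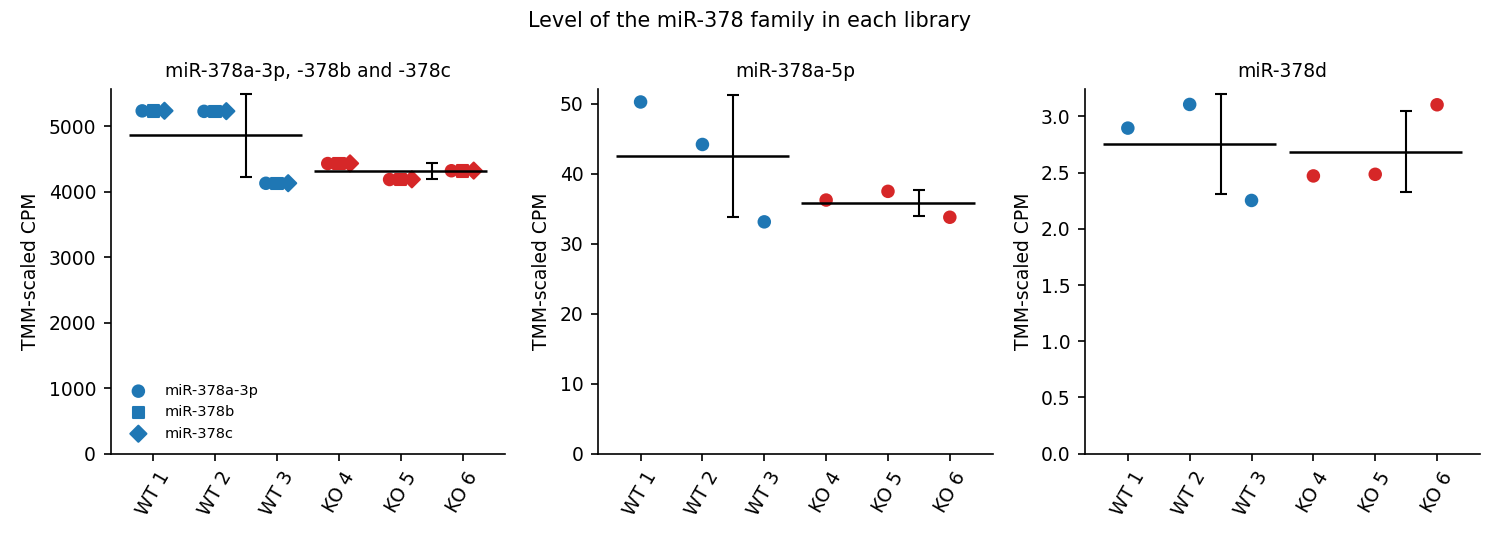
TMM-scaled CPM (y axes from 0) of the family in each of the 3 WT (blue) and 3 KO (red) libraries; points are libraries, black lines group means and bars SD (for miR-378a-3p in the left panel). The 3 guide rows coincide in every library, and WT library 3 is the lowest library in each panel.

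Together, 0 of the 5 members passed an edgeR adjusted p under 0.05, where 7 of 876 tested miRNAs did (0.799%), 3 of them the deleted locus itself. None passed at an unadjusted p under 0.05 either (edgeR p 0.241 to 0.896), and DESeq2 and limma-voom also called 0 of the 5. In 0 of the 5 did the KO values clear the WT values, against 21.8% of all tested miRNAs in either direction. The members do not give 5 readings of this, since 3 rows hold nearly equal counts.

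The sign of these folds rested on the scaling. With the locus gone the rest of the library gains share: in counts scaled only to the library total, the 873 tested miRNAs outside the locus had a median log2 fold of 0.34, and after TMM scaling of -0.01. On the library-total scale miR-378a-3p averaged 4293 ± 594.2 per 1000000 in WT and 4895.5 ± 444 in KO (SD, n = 3 each), giving as log2 fold 0.19 (edgeR adjusted p = 0.54). miR-378a-5p then averaged 37.6 ± 7.85 and 40.7 ± 3.81 (log2 fold 0.12, edgeR adjusted p = 0.821), and miR-378d 2.43 ± 0.414 and 3.04 ± 0.321 (log2 fold 0.32, edgeR adjusted p = 0.509). The folds of miR-378a-3p and miR-378a-5p lie below the shift of the typical miRNA, and that of miR-378d is close to it (0.322 beside 0.335). With RLE scaling, or with the locus removed before TMM scaling, the folds of the 5 members stayed negative, and with upper-quartile scaling miR-378d alone was above 0, at 0.06.

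**Figure D2:**
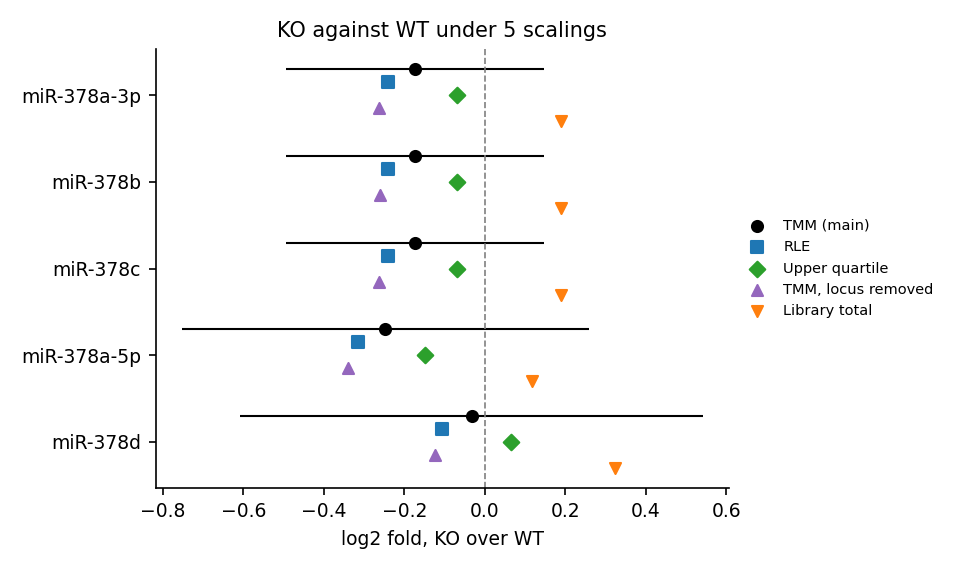
Log2 fold of KO over WT (x axis) for each member under 5 scalings; black circles are the TMM fit with 95% intervals, and other symbols give no interval. The library-total points lie above 0 for all 5 members, and the TMM intervals all include 0.

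Strand use of the miR-378a hairpin was compared next, since the ratio of arms within a library needs no scaling. The 3p row exceeded the 5p row 104.1 to 127.8 times, a ratio that would be larger if guide reads were divided among rows. The 5p arm made up 0.952%, 0.839% and 0.797% of both arms in WT libraries 1 to 3 and 0.812%, 0.888% and 0.777% in KO libraries 4 to 6. WT library 1 had the highest share (95% Wilson interval 0.892 to 1.01%) and KO library 6 the lowest (0.727 to 0.829%), and the groups overlapped. The means were 0.862% ± 0.0802 in WT and 0.826% ± 0.057 in KO (SD, n = 3 each). The log2 ratio of 5p to 3p differed between genotypes by -0.06 (SE 0.17; 95% interval -0.43 to 0.31; limma trend adjusted p = 0.958). That test called 0 of the 263 hairpins with at least 10 counts on average for each arm (0.0%), and 15 of them had an unadjusted limma p under 0.05.

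The mean log2 ratio of 5p to 3p was -6.88. Of the 263 hairpins, 20 (7.6%) leaned more to 3p and 22 leaned further to 5p than this one to 3p, so 42 were more one-sided. Reads of miR-378b and miR-378c cannot be told apart from those of the 3p row, so this lean may include them. Between libraries of a genotype the ratio had a pooled SD of 0.12 log2 units, where the median hairpin had 0.31. That comparison was not matched for depth, and hairpins with few counts vary more by counting error alone.

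**Figure D3:**
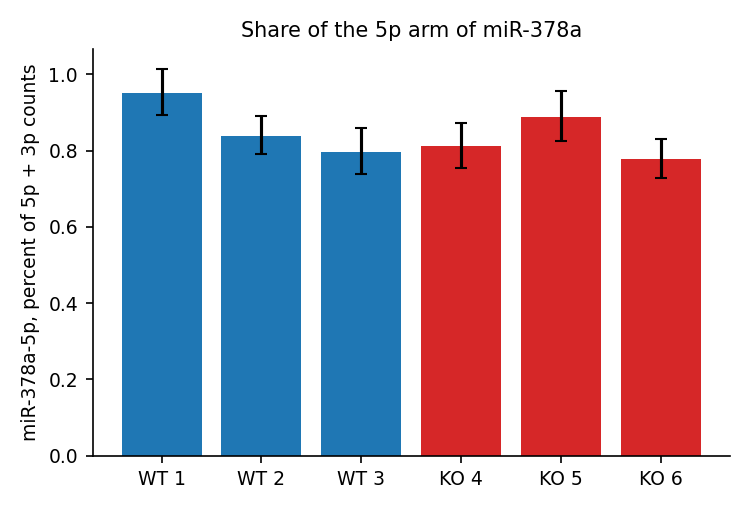
miR-378a-5p counts as a percent of miR-378a-5p plus miR-378a-3p counts (y axis from 0) in each WT (blue) and KO (red) library, with 95% Wilson intervals for counting error. The bars run from 0.777% in KO library 6 to 0.952% in WT library 1, and the genotypes overlap.

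The ratio of miR-378d to the guide was compared in the same way. For every 100000 counts of the guide row there were 55.3, 59.4 and 54.6 counts of miR-378d in WT libraries 1 to 3 and 55.8, 59.4 and 71.8 in KO libraries 4 to 6. The 95% Wilson intervals of these 6 values overlapped, the highest being 57.8 to 89.3 in KO library 6. miR-378d and miR-378c differ by 2 substitutions, and whether the miR-378d counts are a signal separate from the guide was not tested.

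Among libraries the family had a smaller SD than most miRNAs, in a comparison not matched for abundance. The pooled within-genotype SD on the log2(CPM + 1) scale was 0.142 for miR-378a-3p, 0.219 for miR-378a-5p and 0.158 for miR-378d, and 85.3%, 62.7% and 81.6% of tested miRNAs had a larger SD. The added 1 lowers the SD of low rows such as miR-378d, at 2.25 to 3.11 CPM. Profiles were compared as the root mean square (RMS) difference of log2 CPM over the 6 libraries, after centring each miRNA on its own mean. The arms of miR-378a differed by 0.101, miR-378a-3p and miR-378d by 0.135, and miR-378a-5p and miR-378d by 0.201. Relative to their own means, WT library 3 was low in all 3 rows, at -0.23 for miR-378a-5p, -0.14 for miR-378a-3p and -0.26 for miR-378d.

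The hepatocyte miRNA miR-122-5p had its highest level in that same library. On the same centred scale it stood at -0.89, -0.11 and 1.12 in WT libraries 1 to 3 and at -0.54, -0.34 and 0.77 in KO libraries 4 to 6. The summed level of the 11 hepatocyte markers, all of them detected, ranged from 38022.9 to 138406 CPM in WT and from 45729.8 to 107717 CPM in KO, in each genotype a wider span than the family showed. With miR-122-5p as a covariate, the log2 fold of miR-378a-3p was -0.17 (edgeR adjusted p = 0.343) and that of miR-378a-5p -0.24 (edgeR adjusted p = 0.386), beside -0.17 and -0.25 without it.

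**Figure D4:**
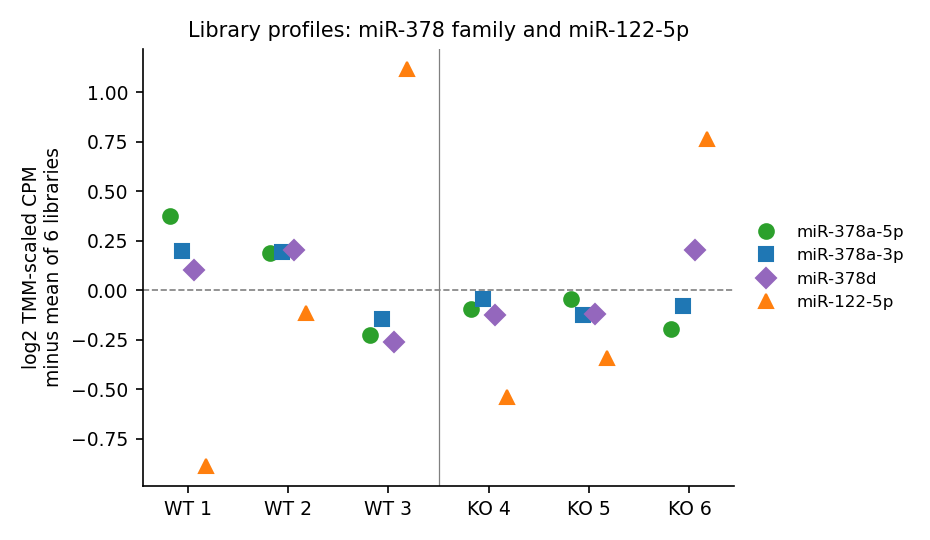
Log2 TMM-scaled CPM minus each miRNA's mean over the 6 libraries (y axis) for miR-378a-5p, miR-378a-3p, miR-378d and the hepatocyte miRNA miR-122-5p; WT libraries are left of the vertical line and KO libraries right. The family stays between -0.26 and 0.38, while miR-122-5p runs from -0.89 to 1.12.

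The profiles nearest to the family were sought among 460 tested miRNAs with a mean of at least 10 CPM. For miR-378a-3p they were miR-191-5p and miR-425-5p (RMS difference 0.049 each), miR-17-3p (0.057), miR-296-3p (0.079) and miR-221-3p (0.088), against a median of 0.322 over all candidates. For miR-378a-5p they were miR-191-5p (0.071), miR-196b-5p (0.078), miR-15a-5p (0.08), miR-466d-3p (0.098) and miR-466a-3p (0.1), against a median of 0.364. As the smallest of 460, the named differences lie below the median by selection. The profiles of the miR-378a arms differed by only 0.101, so the orders are not independent, and miR-191-5p headed both. It stood at 1269.9, 1187.9 and 910.2 CPM in WT and 986, 923.7 and 958.7 CPM in KO, with WT library 3 again the lowest. miR-466d-3p and miR-466a-3p were close to each other in every library (189.1 and 190.7 CPM in WT library 1) and may not be separate signals.

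Of the 7 miRNA genes annotated within 1 Mb of Mir378a, the expressed neighbours were Mir143 and Mir145a, 251.3 and 249.9 kb away, whose miRNAs are known from smooth muscle and stromal cells. The WT libraries 1 to 3 held 1742.1, 1585.9 and 2218.9 CPM of miR-143-3p, the KO libraries 4 to 6 held 1317.6, 1541.7 and 2131.4 CPM (log2 fold -0.15, SE 0.23; edgeR adjusted p = 0.853). WT library 3, the lowest for miR-378a, was the highest for miR-143-3p. For miR-145a-5p the WT mean was 19.2 ± 4.24 CPM and the KO mean 18.1 ± 7.49 CPM (SD, n = 3 each), with a log2 fold of -0.08 (SE 0.33; edgeR adjusted p = 0.997). For miR-145a-3p the log2 fold was -0.38 (SE 0.29; edgeR adjusted p = 0.647), from means of 19.8 ± 5.81 and 15.2 ± 3.4 CPM. Of the other 5 genes, Mir6983 alone had a tested row, miR-6983-3p (log2 fold 0.05, SE 0.52; edgeR adjusted p = 0.999). The passenger miR-143-5p was low, at 1.74 to 2.05 CPM in WT and 2.1 to 2.72 CPM in KO (log2 fold 0.38, SE 0.23, edgeR adjusted p = 0.598). Its groups did not overlap, as was so for 21.8% of all tested miRNAs.

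miRNAs of fat and energy metabolism, the setting in which miR-378a is best known, were compared by a list of 13, of which 12 were tested. None passed with adjustment over all miRNAs, where 0.799% of all tested miRNAs did. The log2 fold was positive for 7 and negative for 5, and its median was 0.28 beside -0.01 over all 876 tested (0.06 to 0.41 with single libraries left out). Its most abundant members were miR-107-3p and miR-103-3p, encoded in introns of pantothenate kinase genes. These rows are near copies and may share reads. The mean of miR-107-3p was 5219.7 ± 221.2 CPM for WT and 7198 ± 44.5 CPM for KO (SD, n = 3 each), giving a log2 fold of 0.46 (SE 0.10; edgeR adjusted p = 0.143). The 3 KO values, 7147.9 to 7232.9 CPM, lay above the 3 WT values, 4966.7 to 5377.1 CPM, unlike those of the similarly abundant miR-378 guide. Of all tested miRNAs, 21.8% had groups that did not overlap. miR-27b-3p had a log2 fold of -0.04 (SE 0.12; edgeR adjusted p = 0.971).

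Muscle, where miR-378a is also abundant, was represented by 8 miRNAs, 5 of them tested. Of these 5, 0 passed (1 above and 4 below 0, median log2 fold -1.99), beside 0.799% of all tested miRNAs. That direction rested on WT library 1: without it, all 5 were above 0 with a median of 1.10, and 0 passed. Without KO library 4, 1 was above and 4 below 0, with a median of -3.67. miR-499-5p, from an intron of the myosin gene Myh7b, was the most abundant, with means of 505.7 ± 83.5 CPM for WT and 825.6 ± 126.9 CPM for KO (SD, n = 3 each; log2 fold 0.71, SE 0.20; edgeR adjusted p = 0.234). miR-206-3p, a skeletal muscle miRNA, reached 203.8 CPM in WT library 1. KO library 4 was next at 41.8 CPM, and the rest held 6.97 to 10.9 CPM. miR-1a-3p and miR-133b-3p had the same pattern, with 174.2 and 22.5 CPM in WT library 1. KO library 4 held 37.3 and 4.39 CPM of them, and the rest at most 8.95 and 0.701 CPM. miR-378a-3p stood at 5231.7 and 5224.2 CPM in WT libraries 1 and 2, and miR-378a-5p at 50.3 and 44.2 CPM. WT library 2 held 10.9 CPM of miR-206-3p. The summed level of the muscle list ran from 424.5 to 987.3 CPM in WT and from 738.9 to 982.3 CPM in KO. miR-499-5p, also on the fat and energy list, held 409.4 to 555.4 CPM of it in WT and 724.8 to 968.1 CPM in KO. The part of muscle in the family's level was not tested. Without WT library 1 the log2 folds were -0.12 for miR-378a-3p (edgeR adjusted p = 0.819) and -0.11 for miR-378a-5p (edgeR adjusted p = 0.873).

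Of the 10 hepatocyte miRNAs tested 0 passed (1 above and 9 below 0, median log2 fold -0.20), and of the 9 erythroid miRNAs outside the locus 0 passed (3 above and 6 below, median -0.06). The 8 smooth muscle and stromal miRNAs tested, of 9 listed, split 1 above to 7 below 0 (median -0.20), the 7 myeloid miRNAs 3 to 4 (median -0.25), and the 2 endothelial arms 2 to 0 (median 0.11). None of these passed. Over all 876 tested miRNAs 0.799% passed, so 0 in lists this short says little about any of these cell types. With single libraries left out, the hepatocyte median was 0.31 without WT library 3, the erythroid one 0.05 without WT library 2, and the endothelial one -0.04 (WT library 2 left out) or -0.06 (KO library 6 left out). The stromal and myeloid medians stayed below 0 in all 6 such fits. Summed levels of the erythroid list ran from 148981 to 223592 CPM in WT and from 168347 to 202466 CPM in KO.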

How the data were processed

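Mature miRNAs were counted by sequencing in 3 WT and 3 KO fetal liver libraries. The deposited table gave raw read counts per mature miRNA, per the file headers, and a deposited percent column per library, which equalled the count divided by the library total to within 5e-09. Cutadapt is named in the submitters' processing notes; no aligner, miRNA release or build is given in the sources used here. The counts were analysed with edgeR 4.0.16 (R 4.3.3): filterByExpr, TMM scaling, and the quasi-likelihood F-test over 876 miRNAs with Benjamini-Hochberg adjustment; under 0.05 was called. SE was taken as |log2 fold|/√F. Arm ratios, log2((5p + 1)/(3p + 1)), were tested with limma 3.58.1 (trend). DESeq2 1.42.0 and limma-voom were alternatives. Family shares were compared by exact two-sided permutation over 20 assignments, and intervals on shares are 95% Wilson (scipy 1.17.1). Hairpins were folded with RNAfold 2.7.2. The edgeR and arm-ratio fits were first tested on simulated data. Members and lists were chosen with earlier results of these data known. Named were the 5 members, up to 4 most abundant miRNAs of a list, annotated neighbours within 1 Mb, and the 5 nearest profiles of each miR-378a arm, leaving out rows within 5% of a member.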

Additional observations from a re-analysis of the deposited data

How the results depend on the processing

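Under 14 alternatives (scaling, filter, DESeq2, limma-voom, miR-122-5p as covariate, and each library left out) 0 of the 5 members passed, nor did any of the 3 left when the guide rows were collapsed to miR-378c. List medians with single libraries left out were added after seeing the data. Directions were less firm. With no scaling factor the log2 folds turned positive, at 0.19 for miR-378a-3p, miR-378b and miR-378c, 0.116 for miR-378a-5p and 0.322 for miR-378d. With upper-quartile scaling miR-378d was at 0.064, and with single libraries left out it ran from -0.228 to 0.004, positive only without WT library 1. The folds of miR-378a-3p and miR-378a-5p stayed negative without each library, from -0.346 to -0.117 and from -0.468 to -0.11. The arm ratio difference ran from -0.117 to 0.012 with single libraries left out and was positive only without WT library 1. The family share difference (KO minus WT) was -0.0525 percentage points when the total left out the deleted locus, against 0.0607 with the full total, and 0.026 to 0.079 with single libraries left out. No paired analysis was possible because the genotypes share no replicate numbers. Over all miRNAs the calls numbered 7 with TMM, 4 with RLE or upper-quartile scaling, 61 on library totals alone, 1 once the locus was removed, 15 with DESeq2, 19 with the covariate and 3 to 4 with single libraries left out. miR-378d is limited by depth, at 45 to 81 counts.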
